A study of Rattus norvegicus with 30 samples.

Results

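The longest starvation in this series, 16 days without serum, was compared with unstarved cells. The members were the 3 libraries of day 16 and the 3 control libraries, 6 of 30 in all, taken by their labels. Both groups were the REF line of rat embryonic fibroblasts, listed as not transformed, and they differed in the labels only in serum: control cells were not starved and day 16 cells had been without serum for 16 days. The design text calls the 3 samples of a time point biological replicates without saying what they are. The p-values measure the spread between such samples, estimated jointly over the 10 groups of all 30 libraries and not from the 6 compared libraries alone. Serum removal and the time since then both differ between these groups. The day 2 group, which had also been without serum, is set beside them for the time, but no group was kept in serum for 16 days. Total RNA was sequenced, and every gene carries a value in FPKM (fragments per length of transcript, scaled by the mapped fragments of the library), which is a relative level per length. Of the 17353 gene symbols, 8940 had a mean of at least 1 FPKM over the 30 libraries and were tested on log2(FPKM + 1) with limma. A gene rose or fell where the p-value, adjusted by the Benjamini-Hochberg method over these genes, was under 0.05.

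Fibroblasts need growth factors from serum to pass from G1 into S phase. Without them they enter quiescence, a reversible arrest in which the retinoblastoma family holds E2F target genes silent. Quiescent cells that wait longer take longer to return to the cycle, which is called deep quiescence, whereas senescent cells no longer return. Lysosomes break down macromolecules and return their parts to the cell, and the series title names them as a graded switch of quiescence depth between proliferation and senescence. Day 16 is the far end of that course, and its distance from day 2, the earliest starved time, is given for most gene groups as the fitted difference of day 16 and day 2. That difference shares the day 16 libraries with the comparison with control.

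Read depth was not given in the sources used here, so no counting error can be stated. The FPKM sum was 668683 to 706921 in control and 652173 to 785072 at day 16, the 10 highest genes held 9.14% to 15.8% of it, and replicates correlated at 0.9863 to 0.9899 (Pearson, log2 values, across genes). In both groups the library numbered replicate 1 stood apart from the other two, at -14.3 and -13 on the leading component of deviations from the group mean against 4.33 to 8.64. Of 15 fibroblast markers, 10 averaged at least 1 FPKM over the 6 libraries, but Col1a2, Thy1 and Fap were listed at 0. Genes that cells in general use were also listed at 0 (Hprt1, Rps6 and Ndufa1), so a 0 in this table can be a failed estimate. Markers of other cell types stood at summed levels of 7.53 to 8.03 FPKM in control and 1.89 to 2.85 at day 16 for macrophages (Ptprc at 0), 13.5 to 15.9 and 8.34 to 9.05 for endothelium, and 3.72 to 4.51 and 3.46 to 4.61 for adipocytes. Bone and cartilage markers stood higher, at 187 to 191 FPKM in control and 153 to 169 at day 16. Epithelial markers stood at 10.9 to 12.9 in control and 62.2 to 75.8 at day 16. Skeletal muscle markers stood at 618 to 622 FPKM in control, and they are given below with the neural and melanocyte markers. Values of a bulk library cannot tell fewer cells of a type from less RNA per cell.

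On the leading principal component, with 51.5% of the variance, the control libraries lay at -84.26 to -82.84, the day 2 libraries at -12.89 to -12.13 and the day 16 libraries at 13.63 to 16.59. The day 14 libraries lay farther from control, at 19.65 to 21.64. On the second component (16.2%) day 16 stood highest, at 21.73 to 23.59, beside 12.84 to 21.28 in control and -22.18 to -13.08 at day 2.

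**Figure D1:**
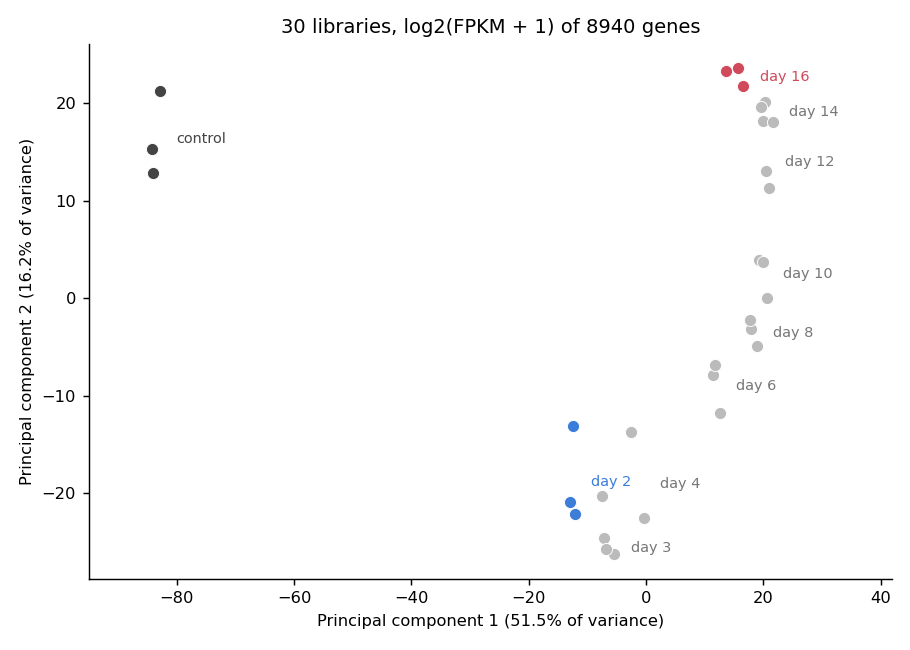
Principal components of log2(FPKM + 1) over 8940 genes, 1 point per library. Control (dark grey) lies at -84.26 to -82.84 on component 1 and day 16 (red) at 13.63 to 16.59, and on component 2 the day 16 libraries, at 21.73 to 23.59, lie farther from day 2 (blue, -22.18 to -13.08) than from control (12.84 to 21.28).

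At day 16, 2899 genes were higher than in control (32.4% of those tested) and 3133 were lower (35.0%). Of these, 979 rose and 1095 fell by at least 2-fold, and at 8-fold the split was 59 rises and 179 falls. Folds here come from the log2(FPKM + 1) scale and understate the change of low genes. The libraries of the 2 groups did not overlap for 6280 genes, 70.2% of those tested, and the median change over all genes was -0.02 (log2). Rescaling each library by its upper quartile moved that median by 0.108 and gave 3408 rises and 2684 falls, so changes of that size are relative to the scaling. With replicates 2 and 3 only, which leaves out the libraries that stood apart, 2831 genes rose and 3060 fell. Against day 2, 1850 genes rose (20.7%) and 1829 fell (20.5%), with a median of 0.

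The most abundant transcripts changed places. These genes were chosen by their rank after the values were seen. Lgals1, which encodes the sugar-binding protein galectin-1, was the highest gene in control, at 10657, 12047 and 12309 FPKM, and stood at 1563, 2573 and 2226 at day 16, rank 61. Ftl1, the ferritin light chain that stores iron, was rank 19 in control at 4270.1, 3495 and 3522 FPKM and rank 1 at day 16 at 17894, 17282 and 15989. Bgn, which encodes the matrix proteoglycan biglycan, went from rank 90 at 1346, 1334 and 1308 FPKM to rank 6 at 8685, 7953 and 7521. In all 3 genes the 2 groups were far apart, with log2 changes of -2.49, 2.18 and 2.60. The calcium-binding proteins S100a4 and S100a6 fell as well, from ranks 3 and 9 to 46 and 50, by 1.33 and 0.99 on the log2 scale. The beta-actin gene Actb fell from rank 4 to rank 21, by 0.68, while the translation factor Eef1a1 stayed near the top, at rank 2 in control and rank 5 at day 16. Its log2 change of 0.25 turned to -0.28 under quantile normalization, so no direction is given.

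**Figure D2:**
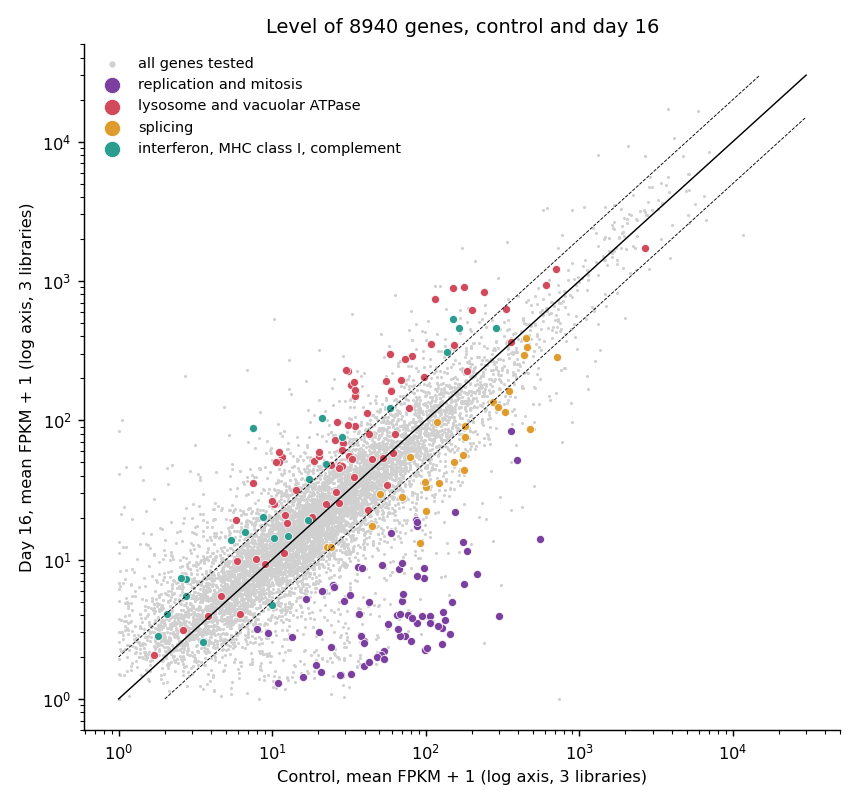
Mean FPKM + 1 of 8940 genes in control (horizontal, log axis) and at day 16 (vertical, log axis), 3 libraries each. The solid line marks equal levels and the dashed lines a 2-fold difference of FPKM + 1. All 39 tested replication genes and 35 mitosis genes (purple) lie under the line, and most lysosomal and vacuolar ATPase genes (red) lie above it.

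Genes of cell division were at a small fraction of their control level. All 39 tested DNA replication genes fell (35.0% of all genes fell), with a median log2 change of -2.88, and all 35 mitosis and cytokinesis genes fell, with a median of -4.70, against -0.02 over all genes. The libraries of the 2 groups did not overlap for any of these 74 genes, where 70.2% of all genes had none. The proliferation marker Mki67 stood at 40.0, 58.0 and 58.9 FPKM in the control libraries and 1.41, 0.721 and 0.699 at day 16. The cyclin gene Ccna2, needed in S phase and for entry into mitosis, stood at 122, 128 and 131 FPKM in control and 2.05, 1.66 and 0.789 at day 16, and fell by 5.71 ± 0.25 on the log2 scale (SE, adjusted p = 1.53e-16). Every control library was more than an order of magnitude above every day 16 library for both genes. Among the 14 largest falls of the whole comparison were the ubiquitin-conjugating enzyme Ube2c (288, 296 and 316 in control against 5.35, 3.07 and 0.410 at day 16 FPKM), the anaphase activator Cdc20 (146, 136 and 145 in control against 2.18, 2.38 and 1.25 at day 16), cyclin B1 (Ccnb1, 97.9, 92.9 and 103 in control against 1.76, 1.16 and 0.794 at day 16) and the mitotic kinase Plk1, which fell by 5.32 ± 0.25 (log2). Birc5, Ccnb2, Cdca3, Fam64a, Knstrn and Racgap1, all genes of mitosis or cytokinesis, were also among the 14. Of genes for S phase, the ribonucleotide reductase subunit Rrm2 fell by 5.34 ± 0.29 (log2), from 491, 571 and 596 to 16.2, 14.3 and 8.68 FPKM. Thymidine kinase (Tk1) fell by 3.71 ± 0.13 and the helicase subunits Mcm6 and Mcm7 by 3.47 ± 0.13 and 4.01 ± 0.16. The polymerase clamp Pcna, which also serves DNA repair, kept more of its level, at 90.8, 81.5 and 74.8 FPKM against 375, 326 and 369 in control. Ns5atp9, a PCNA-binding factor, stood at 285, 310.0 and 327 FPKM in control and was uneven at day 16, at 10.8, 0 and 5.98.

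Day 2 stood close to day 16 for these groups. From control to day 2, which shares the control libraries, the medians were -2.69 for replication genes and -4.45 for mitosis genes. The median change from day 2 to day 16 was 0.03 (log2) for replication genes and -0.20 for mitosis genes. Of the replication genes 2 rose (20.7% of all genes) and 7 fell (20.5%), and of the mitosis genes 0 rose and 5 fell. These counts rested on single libraries: without day 2 replicate 3, 3 replication genes fell, and without day 16 replicate 3 or day 2 replicate 2, 0 and 2 mitosis genes fell. The mitosis count was also 2 with a pseudocount of 5, 3 without the filter and 2 in a fit of the compared groups alone. Pcna rose from day 2, by 0.53 ± 0.09 (log2, adjusted p = 1.50e-05). The day 14 means lay below those of day 16 for Ube2c (0.745 ± 0.182 FPKM, mean ± SD, n = 3), Ccna2 (0.461 ± 0.223), Rrm2 (3.17 ± 1.65) and Mki67 (0.182 ± 0.129). For Ube2c, however, day 16 replicate 3 was under the day 14 mean. The difference of days 14 and 16 was not tested.

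Promoters of these genes carry known cell cycle motifs, shown here because the genes moved together. Promoters were read from RefSeq (GRCr8, 250 bases before to 50 after each gene's start), matched by symbol, and searched on both strands. The cell cycle element (TTTGAA or TTCGAA) was in 23 of 30 matched promoters of mitosis genes, 76.7%, against 13.3% of the promoters of 6972 tested genes and 19.5% of all 27457. The CCAAT box (CCAAT) was also in 23 of 30, against 38.7% and 37.7%. An E2F element (TTTCCCGC or TTTGGCGC) was in 12 of 33 matched promoters of replication genes, 36.4%, against 3.27% and 1.53%. A match describes letters and is no evidence of binding. Stretches upstream of the start of 3 genes that fell are given 5′ to 3′ on the gene's strand, with the matches in capitals and no overlap between motifs.
Ccnb2 (chr8:79981684-79981804, minus strand, CCAAT boxes and the element TTTGAA): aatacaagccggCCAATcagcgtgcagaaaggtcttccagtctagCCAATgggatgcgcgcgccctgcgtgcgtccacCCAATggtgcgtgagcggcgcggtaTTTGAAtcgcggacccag
Cdc20 (chr5:137255824-137255897, minus strand, the same motifs): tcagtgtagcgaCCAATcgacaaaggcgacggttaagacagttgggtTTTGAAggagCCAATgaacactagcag
Mcm6 (chr13:42404472-42404503, minus strand, E2F element): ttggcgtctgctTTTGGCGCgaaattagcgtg

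The genes that decide on entry into S phase moved both ways. Of 21 tested genes of G1 control and CDK inhibitors 14 fell, 5 rose and 2 did not pass (median -1.10). E2f1, a transcription factor of S phase genes, stood at 38.0, 42.9 and 35.4 FPKM in control and 13.7, 11.8 and 11.9 at day 16. That was a fall of 1.56 ± 0.14 (log2), but E2f1 was higher than at day 2 (5.74 ± 0.432 FPKM), by 0.99 ± 0.14 (adjusted p = 1.76e-06). Cyclin E2 (Ccne2) fell by 2.21 ± 0.16, the retinoblastoma relative Rbl1 by 2.74 ± 0.18, the E2F partner Tfdp1 by 1.10 ± 0.08 and the growth regulator Myc by 1.72 ± 0.17. The D cyclins, which serum normally induces, differed from each other. Ccnd3 stood at 459.8, 432 and 401 FPKM in control and 171, 177 and 163 at day 16, a fall of 1.33 ± 0.06. Cyclin D1 (Ccnd1) stood at 259.9, 279 and 284 FPKM in control and 291, 330.4 and 341 at day 16, higher in each day 16 library, but did not pass (log2 change 0.22 ± 0.10, adjusted p = 0.053). It passed with the replicate number as a block (adjusted p = 0.00101), after upper quartile or quantile scaling (2.72e-05 and 0.00175) and with replicates 2 and 3 only (0.00184).

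Of the CDK inhibitors, p27 (Cdkn1b) rose, from 37.3, 44.9 and 43.7 FPKM to 67.5, 71.5 and 83.3, by 0.81 ± 0.10 (log2, adjusted p = 2.19e-07). It is a marker of quiescent cells, and it was also higher than at day 2, by 0.55 ± 0.10 (adjusted p = 0.00013). The 2 INK4 genes that mark senescent cells were lower than in control. Cdkn2a stood at 80.5, 51.8 and 63.8 FPKM in control and 26.0, 26.0 and 21.6 at day 16 (adjusted p = 4.24e-06). Cdkn2b stood at 41.8, 39.4 and 38.7 in control and 24.4, 25.4 and 22.0 at day 16 (adjusted p = 5.99e-07). FPKM per symbol does not separate the 2 products of the Cdkn2a locus. Cdkn2a fell by 1.15 and Cdkn2b by 1.09 on the log2 scale from day 2. The p53 target p21 (Cdkn1a) stood at 153, 120.3 and 116 FPKM in control, 299.6 ± 56.7 (mean ± SD, n = 3) at day 2 and 168, 152 and 169 at day 16, with control replicate 1 above the lowest day 16 library. Its difference from control, 0.33 ± 0.13 (adjusted p = 0.0266), did not pass without control replicate 2 or 3 (0.0952 and 0.122), without day 16 replicate 1 or 3 (0.0694 and 0.075), or after rescaling to equal sums (0.218) or with short RNA genes left out (0.164). Its fall from day 2 was 0.86 ± 0.13 (adjusted p = 6.22e-06).

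Other genes used to recognise senescence moved in several directions. All 18 tested genes of a list of chromatin and nuclear lamina genes linked to senescence fell (35.0% of all genes fell), with a median of -2.20. The list was not limited to genes that are lost in senescence. Lamin B1 (Lmnb1) stood at 82.0, 89.5 and 99.1 FPKM in control and 5.21, 4.55 and 2.92 at day 16. Lamin B2 (Lmnb2) stood at 136, 137 and 139.7 in control and 12.3, 12.7 and 11.7 at day 16. The chromatin protein Hmgb2 fell by 3.98 ± 0.17 and the histone methyltransferase Ezh2 by 3.19 ± 0.11. Lamins A and C (Lmna) fell by 1.74 ± 0.07, and the histone variant H2afz by 2.72 ± 0.10. Several of these genes are also known to be higher in dividing cells. Of the secreted factors linked to senescence, 24 were in the table and 13 were tested. Of these 6 rose (32.4% of all genes rose), 6 fell (35.0% fell) and 1 did not pass. Il1a, Il1b, Tnf and Csf2 were listed at 0 in the control, day 2 and day 16 libraries. The angiogenic factor Vegfa rose from 18.7, 18.4 and 20.6 FPKM to 329.8, 322 and 306, and the adhesion molecule Icam1 from 8.17, 8.45 and 9.35 to 58.0, 62.3 and 58.7. The IGF-binding proteins went opposite ways, with Igfbp7 at 323, 269 and 288 in control and 1029.5, 1110.2 and 1002 at day 16. Igfbp4 stood at 121, 123 and 105 in control and 12.1, 8.91 and 9.23 at day 16. Of 24 p53 targets 10 rose (32.4% of all genes rose), 6 fell (35.0% fell) and 8 did not pass (median 0.10). The repair gene Xpc rose by 1.72 ± 0.10 (log2), the death receptor Fas by 1.61 ± 0.10 and the cyclin-like gene Ccng2 by 1.13 ± 0.10, while the kinase Plk2 fell by 1.96 ± 0.08. Compared with day 2, 6 p53 targets rose (20.7% of all genes) and 11 fell (20.5%).

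Lysosomal genes were among the groups that rose. Of 34 tested lysosomal hydrolases, which digest proteins, sugars and lipids, 27 rose (32.4% of all genes rose), 1 fell and 6 did not pass (median 1.50). Cathepsin D (Ctsd), an aspartic protease, stood at 185, 173 and 174 FPKM in control and 890.3, 920.0 and 905 at day 16, a 5.08-fold rise (log2 2.34 ± 0.06, adjusted p = 1.61e-21). The glycogen-digesting glucosidase Gaa stood at 28.8, 30.2 and 28.7 FPKM in control and 221, 245 and 221 at day 16. Cathepsin H (Ctsh) stood at 32.7, 28.3 and 29.3 in control and 216, 233 and 222 at day 16. The mannosidase Man2b1 stood at 34.0, 33.3 and 33.7 in control and 163, 166 and 159.7 at day 16. For each of these genes the lowest day 16 library was several times the highest control library. Ctsz, another cathepsin, was the hydrolase that fell, by 0.70. It and the other few genes below that went against their list were named after their values were seen. Beta-galactosidase (Glb1), the enzyme behind the staining used for senescent cells, rose less, from 34.0, 28.6 and 28.8 FPKM to 56.0, 54.2 and 54.2, by 0.83 ± 0.07 (adjusted p = 8.01e-11).

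Of 27 lysosomal membrane proteins and transporters 17 rose, 3 fell and 7 did not pass (median 0.72). The major membrane glycoprotein Lamp1 stood at 272, 217 and 229 FPKM in control and 880.0, 797 and 822 at day 16. Lamp2 stood at 71.2, 80.2 and 89.3 in control and 255, 304 and 303 at day 16. The sterol carrier Npc2 rose by 2.56 ± 0.08 (log2) and the lipid transporter Abca2 by 2.25 ± 0.11. The membrane genes that fell were the tetraspanin Cd63, by 0.66, the amino acid sensor Slc38a9, by 0.61 (adjusted p = 0.0952 with replicates 2 and 3 only), and the calcium channel Tpcn1, by 0.88. Of 17 genes of the vacuolar ATPase, the proton pump that acidifies the lysosome, 16 rose and 1 (Atp6v0a2, adjusted p = 0.61) did not pass (median 0.93). Atp6ap1, an accessory subunit, stood at 106, 106 and 107 FPKM in control and 352, 349 and 356 at day 16. The subunits Atp6v1d, Atp6v0d1 and Atp6v0e1 rose by 1.92 ± 0.09, 1.49 ± 0.07 and 1.07 ± 0.09.

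The lysosomal groups also stood above day 2. From day 2 to day 16, 26 hydrolase genes rose (20.7% of all genes) and 2 fell, with a median of 0.67, and 14 membrane genes rose and 5 fell, with a median of 0.30. Of the vacuolar ATPase genes 15 rose and 0 fell, with a median of 0.71 beside 0.22 from control to day 2. Atp6ap1 was at 130.1 ± 3.06 FPKM (mean ± SD, n = 3) at day 2, near its control level, and rose by 1.43 ± 0.06 from there (adjusted p = 2.39e-16). Ctsd was at 476 ± 11.5 FPKM at day 2 and rose by 0.92 ± 0.06 (adjusted p = 5.51e-13), and Gaa was at 78.1 ± 4.92 and rose by 1.54 ± 0.07 (adjusted p = 2.47e-15). The hydrolases that fell from day 2 were Smpd1 and Lipa, enzymes that digest sphingomyelin and lipid esters, by 0.25 and 0.67.

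The E-box TCACGTGA, the motif of the lysosomal gene network read by Tfeb and its relatives, is the same on both strands. It was in 8 of 62 matched promoters of lysosomal and vacuolar ATPase genes, 12.9%, against 1.79% of the promoters of tested genes and 0.867% of all promoters. It was in 6 of the 46 matched promoters of members that rose. Stretches of 4 promoters are shown, with the E-box in capitals, from 3 genes that rose and from Igf2r, the receptor that delivers hydrolases to the lysosome, which carries the motif and had a log2 change of -0.05 (adjusted p = 0.807).
Lamp1 (chr16:83075083-83075141, minus strand): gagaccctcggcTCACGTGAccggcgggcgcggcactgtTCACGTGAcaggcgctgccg
Ctsd (chr1:206968822-206968844, minus strand): ctcgcccgcgtcTCACGTGAccc
Atp6v0d1 (chr19:50357282-50357313, minus strand): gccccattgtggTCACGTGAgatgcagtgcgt
Igf2r (chr1:50526740-50526811, plus strand): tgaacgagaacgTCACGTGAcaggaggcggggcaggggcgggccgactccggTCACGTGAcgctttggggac
The transcript of Tfeb itself stood at 6.56, 6.06 and 6.70 FPKM in control and 7.71, 8.16 and 5.84 at day 16. Those libraries overlapped, and the difference did not pass (log2 change 0.14 ± 0.17, adjusted p = 0.489).

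Autophagy delivers cell contents to the lysosome, and 27 of its 38 tested genes rose, 1 fell (Atg101, by 0.43) and 10 did not pass (median 0.60). The autophagosome protein Gabarapl1 stood at 21.3, 16.9 and 14.6 FPKM in control and 107, 109 and 108 at day 16. The mitophagy receptors Bnip3 and Bnip3l rose by 2.37 ± 0.08 and 1.77 ± 0.08 (log2), and the cargo receptor Sqstm1 by 1.19 ± 0.06. Of 24 genes through which the lysosome reports nutrients to mTORC1, 16 rose, 3 fell and 5 did not pass (median 0.56). Folliculin (Flcn) stood at 8.87, 10.8 and 8.58 FPKM in control and 32.2, 29.7 and 29.2 at day 16. The Rag GTPase Rragc stood at 44.0, 42.8 and 43.5 in control and 65.9, 72.7 and 76.7 at day 16. The Ragulator subunit Lamtor1 stood at 96.5, 83.4 and 82.1 in control and 144, 139.6 and 140.4 at day 16. The nutrient sensing genes that fell were the kinase Mtor itself, by 0.42, its activator Rheb, by 0.18, and the GATOR1 subunit Depdc5, by 0.31. The last 2 calls were fragile: with the replicate block in the compared groups alone the adjusted p was 0.073 for Rheb and 0.0624 for Depdc5. Without control replicate 1 or day 16 replicate 1 Rheb stood at 0.0758 and 0.125, and Depdc5 did not pass without control replicate 2 (0.0692), control replicate 3 (0.0696) or day 16 replicate 1 (0.0512). None of Flcn, Rragc and Lamtor1 overlapped between the groups. From day 2 to day 16, 14 autophagy genes rose and 4 fell, and 9 nutrient sensing genes rose and 0 fell.

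**Figure D3:**
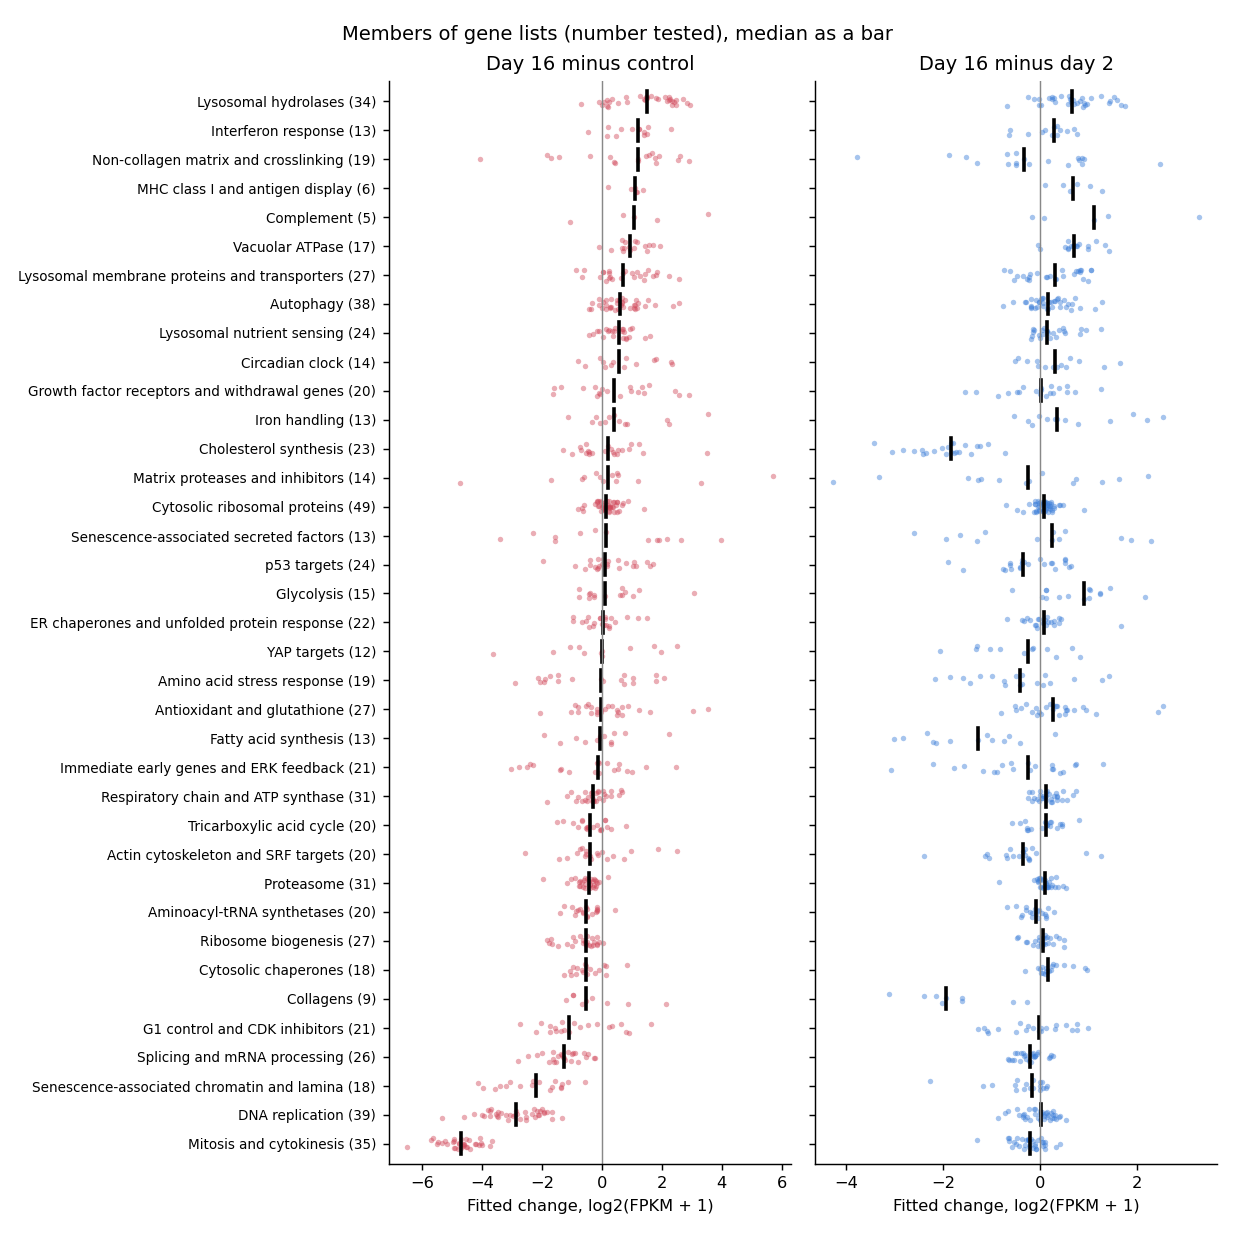
Fitted change in log2(FPKM + 1) of each tested member (points) of 37 gene lists at day 16 against control (left) and against day 2 (right), with the median as a bar and the number tested in brackets. Against control the medians run from -4.70 for mitosis to 1.50 for lysosomal hydrolases, and against day 2 cholesterol synthesis (-1.84) and collagens (-1.94) stand lowest.

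Cholesterol synthesis genes were split around their control level at day 16. Of 23 tested genes 11 rose, 10 fell and 2 did not pass against control, with a median of 0.20 beside 1.98 at day 2. All 23 fell from day 2 to day 16 (20.5% of all genes fell), with a median of -1.84. The synthase gene Hmgcs1, early in the mevalonate route, stood at 32.6, 37.9 and 33.9 FPKM in control, 234, 267 and 241 at day 2 and 62.7, 66.5 and 76.9 at day 16. The decarboxylase Mvd stood at 36.4, 37.0 and 34.2 in control, 282, 339.9 and 266 at day 2 and 21.9, 32.3 and 26.2 at day 16, so that it ended below control, by 0.42 on the log2 scale (adjusted p = 0.00557). That call was lost without day 16 replicate 1 (adjusted p = 0.0611) and with replicates 2 and 3 only (0.0523). Genes that stayed above control were the sterol reductase Tm7sf2 (2.64, 2.15 and 2.37 in control against 31.6, 44.5 and 37.9 at day 16 FPKM), the sterol sensor partner Insig1 (25.4, 29.1 and 25.0 in control against 63.0, 74.9 and 74.9 at day 16) and the cyclase Lss (12.7, 12.8 and 14.3 in control against 30.6, 32.7 and 34.6 at day 16). Of 13 fatty acid synthesis genes 5 rose, 4 fell and 4 did not pass against control, near the shares over all genes (32.4% and 35.0%). From day 2, 12 of them fell and 1 rose. The acetyl-CoA synthetase Acss2 rose by 2.24 ± 0.08 (log2) against control, and the desaturases Fads1 and Fads2 fell by 1.92 ± 0.09 and 1.41 ± 0.13.

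Energy metabolism differed by pathway. Of 15 genes listed for glycolysis 7 rose (32.4% of all genes rose), 7 fell (35.0% fell) and 1 did not pass against control. The median was 0.10, and the changes ran from -0.775 to 3.07 (log2). From day 2 to day 16, 10 rose (20.7% of all genes) and 1 fell, with a median of 0.91. The glycolysis genes named next are all among those that rose from control. The kinase Pdk1, which turns pyruvate away from the mitochondrion, stood at 2.55, 1.93 and 3.09 FPKM in control and 23.5, 30.5 and 31.6 at day 16. Aldolase (Aldoa) stood at 745, 712 and 709 in control and 1705, 1738 and 1709 at day 16, while its day 2 level was 728 ± 57.8 (mean ± SD, n = 3). Pgam1 and Gpi rose by 0.66 ± 0.06 and 0.76 ± 0.07 (log2). Of 20 genes of the tricarboxylic acid cycle 11 fell, 1 rose and 8 did not pass (median -0.38). Isocitrate dehydrogenase (Idh2) fell by 1.30 ± 0.08 and fumarase (Fh) by 1.49 ± 0.10, and Sucla2 was the gene that rose, by 0.81 ± 0.09. From day 2, 6 of these genes rose (20.7% of all genes) and 5 fell (20.5%). Of 31 nuclear genes of the respiratory chain and ATP synthase 16 fell, 5 rose and 10 did not pass (median -0.28). Cytochrome c (Cycs) stood at 252, 256 and 266 FPKM in control and 64.9, 73.5 and 78.0 at day 16. The ATP synthase subunit Atp5b stood at 1253, 1223 and 1289 in control and 542, 647 and 638 at day 16.

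Most tested genes of splicing, ribosome biogenesis, tRNA charging and the proteasome fell. Of 26 splicing and mRNA processing genes 25 fell and 1 did not pass (median -1.28). The splicing regulator Hnrnpa1 stood at 424, 491 and 514 FPKM in control and 82.0, 83.4 and 93.1 at day 16, and Srsf7, Srsf3 and Snrpa1 fell by 2.01 ± 0.10, 1.62 ± 0.08 and 2.17 ± 0.10 (log2). From day 2, 12 splicing genes fell and 1 rose. Of 27 ribosome biogenesis genes 22 fell and 0 rose, with a median of -0.54, among them the nucleolar methyltransferase Fbl, at 149.8, 116 and 135 FPKM in control and 39.4, 34.7 and 36.6 at day 16. From day 2, 5 of the biogenesis genes rose (20.7% of all genes) and 4 fell (20.5%). Of 49 cytosolic ribosomal proteins 13 rose, 3 fell and 33 did not pass (median 0.15). The number that rose was 21 after upper quartile scaling and 22 with replicates 2 and 3 only. Rplp1 rose from 4564, 3399.7 and 4375 FPKM to 10477, 11428 and 10190.0, and Rps2 fell from 4678, 3665 and 3785 to 2639, 2523 and 2427. Of 20 aminoacyl-tRNA synthetases 18 fell and 1 rose (Qars, by 0.45), with a median of -0.52, led by Yars, which fell by 1.40 ± 0.08. Of 31 proteasome genes 24 fell and 0 rose, with a median of -0.43. The base subunit Psmc3 stood at 362, 350.4 and 372 FPKM in control and 83.4, 101 and 94.0 at day 16. From day 2, 6 proteasome genes rose (20.7% of all genes) and 1, Psmc3, fell (20.5%). Of 18 cytosolic chaperones 12 fell and 1 rose, with a median of -0.54. The chaperonin subunit Tcp1 fell by 1.26 ± 0.07, and Hsph1, a partner of heat shock proteins, was the one that rose, by 0.84 ± 0.07. Of 22 genes of endoplasmic reticulum chaperones and the unfolded protein response 7 rose and 7 fell. These counts are near the shares over all genes (32.4% rose and 35.0% fell).

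Amino acid stress genes, the targets of Atf4, held the serine and one-carbon enzymes among their falls. Of 19 tested, 8 rose (32.4% of all genes rose), 9 fell (35.0% fell) and 2 did not pass. The median was -0.02, and the changes ran from -2.9 to 2.06 (log2). Psat1, Shmt2, Mthfd2 and Slc7a5, named next, are all among the falls. The aminotransferase Psat1 stood at 82.1, 81.6 and 86.9 FPKM in control and 7.99, 12.9 and 10.6 at day 16, and the mitochondrial enzymes Shmt2 and Mthfd2 fell by 1.94 ± 0.11 and 2.12 ± 0.10 (log2). The amino acid transporter Slc7a5 stood at 51.1, 55.7 and 58.0 FPKM in control, 59.7 ± 7.48 (mean ± SD, n = 3) at day 2 and 12.0, 12.7 and 12.5 at day 16. From day 2, 12 genes of this list fell and 3 rose: the stress factors Ddit3 and Cebpb, by 1.29 and 1.43, and the transporter chain Slc3a2, by 0.71. Atf4 itself had a log2 change of 0.04 against control (adjusted p = 0.62). It passed under quantile normalization (log2 change 0.18, adjusted p = 0.0389).

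Matrix genes were rearranged rather than moved together. Of 9 tested collagen genes 6 fell, 2 rose and 1 did not pass against control, with a median of -0.55, beside 1.43 at day 2, and 8 fell from day 2. Col1a1, the main fibrillar collagen chain, stood at 2147, 2565 and 2261 FPKM in control, 5914, 6503 and 6332 at day 2 and 1325, 1219.8 and 1059.6 at day 16. Col5a2 and Col18a1 fell by 0.55 ± 0.07 and 1.20 ± 0.06 (log2) against control, and the collagens that rose were Col8a1, by 2.13 ± 0.20, and Col16a1, by 0.88. Of 19 other matrix and crosslinking genes 13 rose, 5 fell and 1 did not pass (median 1.21). Biglycan rose 6.04-fold, as given above, and periostin (Postn) stood at 79.7, 76.4 and 80.5 FPKM in control and 563, 614 and 637 at day 16. The elastic fibre protein Fbln5 rose by 1.76 ± 0.06. Versican (Vcan), a large proteoglycan, went down, from 107, 131 and 136 FPKM to 6.75, 6.14 and 6.45, a 16.8-fold fall. From day 2 to day 16, 10 of the non-collagen matrix genes fell and 8 rose (median -0.32). Of 14 proteases and inhibitors 7 rose (32.4% of all genes rose), 4 fell (35.0% fell) and 3 did not pass. The metalloprotease Adamts1 stood at 7.84, 9.73 and 10.4 FPKM in control and 475, 566 and 564 at day 16. The protease inhibitor Cst3 stood at 184, 162 and 170.2 in control and 1517, 1844 and 1800.2 at day 16. The plasminogen activator Plau went the other way, from 91.7, 102 and 109 to 2.74, 2.57 and 3.06. Mmp2, a gelatinase, stood at 0.716, 1.25 and 0.856 FPKM in control, 34.7 ± 3.25 (mean ± SD) at day 2 and 1.31, 0.893 and 0.456 at day 16, and did not differ past the threshold from control (log2 change -0.06 ± 0.15, adjusted p = 0.748).

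Of 20 genes of the actin cytoskeleton and targets of the serum response factor, 10 fell, 5 rose and 5 did not pass (median -0.39). Tropomyosin 2 (Tpm2) rose by 1.87 ± 0.09 (log2), caldesmon (Cald1) by 2.51 ± 0.20 and the myosin light chain Myl9 by 0.96 ± 0.08, while Fhl2 fell by 2.55 ± 0.19. Smooth muscle actin (Acta2), the marker of contractile fibroblasts, stood at 2276, 2431 and 2433 FPKM in control and 2385, 2874 and 2893 at day 16. It did not pass (log2 change 0.19 ± 0.13, adjusted p = 0.193). It passed with the replicate number as a block over all libraries (0.0418), after upper quartile scaling (0.00371) and with replicates 2 and 3 only (0.0121). Of 12 targets of YAP, a coactivator that reads cell tension, 4 rose and 4 fell. These counts are near the shares over all genes (32.4% rose and 35.0% fell). Ctgf stood at 569.8, 556 and 602 FPKM in control and 3208, 3321 and 3182 at day 16. Ankrd1 stood at 238, 232 and 264 in control and 17.4, 20.1 and 18.6 at day 16. Amotl2 rose by 1.98 ± 0.06. Of 21 immediate early genes and ERK feedback genes, which serum induces, 7 rose, 8 fell and 6 did not pass. These counts are also near the shares over all genes (32.4% rose and 35.0% fell). Jun stood at 104, 108 and 108 FPKM in control and 13.9, 16.5 and 14.0 at day 16, and Fosl1 and Phlda1 fell by 3.04 ± 0.14 and 2.40 ± 0.10. The phosphatase Dusp1 went up, from 42.6, 37.1 and 37.2 FPKM to 211, 226 and 219. The Notch target Hes1 stood at 30.2, 29.3 and 28.2 FPKM in control, 39.0 ± 2.27 (mean ± SD) at day 2 and 9.37, 7.10 and 6.88 at day 16.

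Of 20 growth factor receptors and genes of growth factor withdrawal 10 rose, 4 fell and 6 did not pass (median 0.40). Over all genes 32.4% rose and 35.0% fell. The growth arrest gene Gas6, a ligand of the receptor Axl, stood at 126, 128 and 113 FPKM in control and 884, 969 and 922 at day 16, while Axl itself stood at 168, 213 and 199.9 in control and 58.4, 64.0 and 62.7 at day 16. The PDGF receptor gene Pdgfrb rose by 2.57 ± 0.08 (log2) and the transcription factor Foxo4 by 1.41 ± 0.09. Pdgfra was under the filter, at 0.129 to 0.225 FPKM in control and 0.443 to 0.512 at day 16.

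Most tested genes of the interferon response and of antigen display rose, where 32.4% of all genes rose and 35.0% fell. The labels name no interferon or other immune agent. Of 13 tested interferon response genes 9 rose, 1 fell (the GTPase Gbp2, by 0.46, adjusted p = 0.102 with a pseudocount of 0.1) and 3 did not pass (median 1.22), and 12 more listed genes were under the filter. The transcription factor Stat2 rose by 1.22 ± 0.07 (log2), Ifi27 by 1.50 ± 0.10 and the secreted glycoprotein Lgals3bp by 2.30 ± 0.07. From day 2, 6 interferon response genes rose and 3 fell. Of 6 tested genes of MHC class I and antigen display 5 rose and 1 did not pass (median 1.12), and 3 more were under the filter. The common light chain B2m stood at 145, 127 and 139 FPKM in control, 204 ± 24.8 (mean ± SD, n = 3) at day 2 and 311, 305 and 315 at day 16. The class I heavy chain genes RT1-CE5 and RT1-A2, which are near-identical copies whose reads may be split between them, rose by 1.10 ± 0.16 and 1.36 ± 0.23. Of 5 tested complement genes 4 rose and 1 (Cd55, a complement inhibitor) fell, with a median of 1.06. Another 13 complement genes in the table were under the filter. The protease C1s stood at 6.34, 6.92 and 6.41 FPKM in control, 8.79, 7.22 and 8.12 at day 2 and 82.5, 91.3 and 87.5 at day 16, a rise of 3.29 ± 0.11 from day 2 (log2, adjusted p = 7.42e-18). C1r stood at 159, 139.5 and 151 in control, 204, 197 and 201 at day 2 and 543, 512 and 553 at day 16. The summed macrophage markers were lower at day 16 than in control, as given above, with Ptprc at 0. Only 2 of the 14 measured (Csf1r and Cd14) averaged at least 1 FPKM, and a 0 can be a failed estimate. What share macrophages had in these rises was not tested.

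Among the listed iron handling genes, those with the largest fitted rises were Hmox1, Slc40a1 and Ftl1. The ferritin receptor Scara5, given below, was not on this list. Of 13 iron handling genes 8 rose (32.4% of all genes rose), 1 fell (35.0% fell) and 4 did not pass (median 0.40). Heme oxygenase (Hmox1), which releases iron from heme, stood at 12.0, 12.2 and 12.7 FPKM in control, 25.7 ± 4.99 (mean ± SD, n = 3) at day 2 and 151, 173 and 136 at day 16. Ftl1 rose by 2.18 ± 0.12 (log2) against control and by 1.93 ± 0.12 against day 2 (adjusted p = 9.98e-13). The iron exporter Slc40a1 stood at 0.163, 0.0952 and 0.0908 FPKM in control and 4.25, 4.19 and 4.51 at day 16. It passed the filter only through starved libraries, so the count of rises depends in part on the filter. The endosomal iron reductase Steap3 fell by 1.12 ± 0.11. Of 27 antioxidant and glutathione genes 11 rose, 7 fell and 9 did not pass (median -0.03). The glutathione transferase Gstm2 stood at 55.9, 39.5 and 54.5 FPKM in control and 394, 451 and 403 at day 16, catalase (Cat) rose by 1.61 ± 0.08, and the peroxidase Gpx1 fell from 587, 517 and 532 FPKM to 117, 136 and 138. Of 14 clock genes 8 rose and 2 (Cry1 and Nfil3) fell, with a median of 0.56. With a mean of at least 5 FPKM required, 5 rose. Nr1d1, a repressor in the clock, stood at 4.37, 6.02 and 4.16 FPKM in control and 27.6, 29.5 and 26.1 at day 16, and the clock output genes Dbp and Tef rose by 2.33 ± 0.13 and 1.79 ± 0.09.

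**Figure D4:**
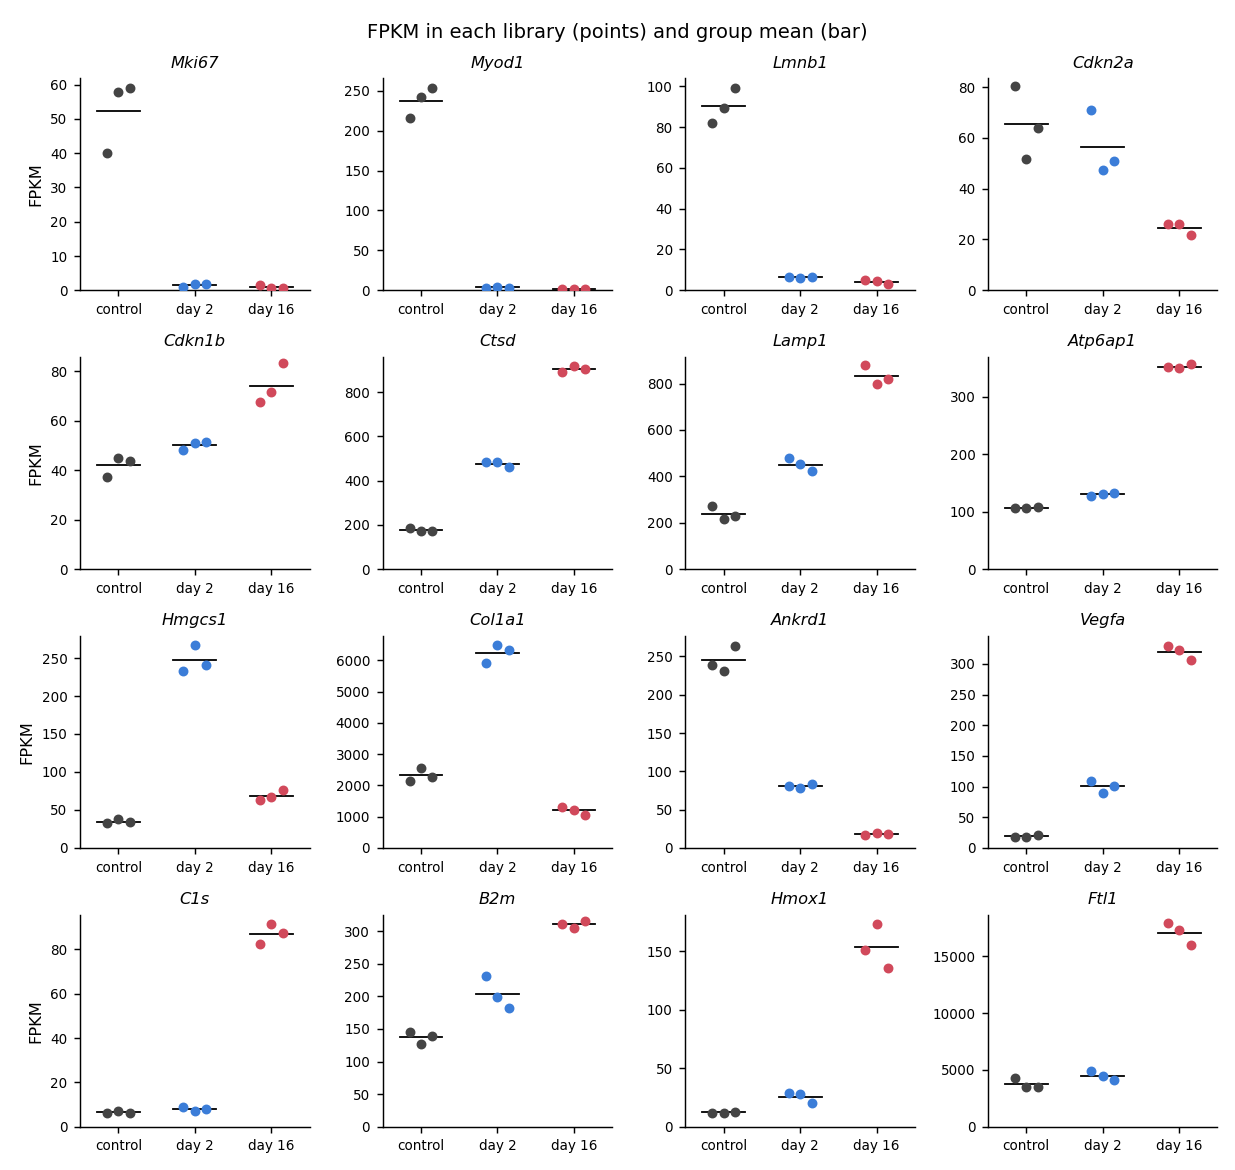
FPKM of 16 genes in each of the 3 libraries (points) of control, day 2 and day 16, with the group mean as a bar and each vertical axis starting at 0. Mki67, Myod1 and Lmnb1 are low at day 2 and day 16, Hmgcs1 and Col1a1 are highest at day 2, and C1s, Hmox1 and Ftl1 at day 16 stand above both other groups.

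The largest single change downward was in a muscle regulator. Myod1, the transcription factor that commits cells to skeletal muscle, stood at 216, 243 and 253 FPKM in the control fibroblasts and 1.73, 1.47 and 1.32 at day 16, a 95.1-fold fall (log2 -6.57 ± 0.24, adjusted p = 4.82e-18). Of 10 tested skeletal muscle markers 6 fell, 2 rose and 2 did not pass, and 11 fell when no filter on low values was used. The summed level of the 23 measured markers was 618 to 622 FPKM in control and 124 to 135 at day 16. The muscle cadherin Cdh15 stood at 135, 139 and 139.7 FPKM in control and 11.1, 10.1 and 9.05 at day 16. Desmin (Des) stood at 94.8, 85.7 and 81.5 in control and 23.9, 29.7 and 25.1 at day 16. Troponin T2 (Tnnt2) rose against control, from 2.49, 1.88 and 2.29 FPKM to 21.2, 15.8 and 12.4, but its day 2 level was 141 ± 21.3 (mean ± SD). The neural and stem cell filament gene Nes stood at 81.9, 100.3 and 100.2 FPKM in control and 11.8, 12.3 and 12.2 at day 16, and the summed neural and glial markers at 143 to 187 and 39.9 to 48.5. What share other cell types had in these changes was not tested.

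The largest rises held secreted, membrane and calcium-handling proteins. Phospholamban (Pln), a regulator of the calcium pump of the endoplasmic reticulum, was at 0 to 0.068 FPKM in the control libraries and 107, 96.8 and 96.5 at day 16. The ferritin receptor Scara5 was listed at 0 in all 3 control libraries and stood at 5.10, 5.84 and 7.31 FPKM at day 2 and 79.3, 86.6 and 82.7 at day 16. Mlana, a melanosome protein, was listed at 0 in every control and day 2 library and stood at 32.2, 51.0 and 36.7 FPKM at day 16. Itgbl1 stood at 2.09, 1.61 and 1.43 FPKM in control and 188, 218 and 211 at day 16. C1qtnf5 stood at 5.34, 6.10 and 6.16 in control and 207, 242 and 234 at day 16. Nkd2, an inhibitor of Wnt signalling, stood at 0.378, 0.356 and 0.409 in control and 49.4, 43.2 and 42.5 at day 16, and Smoc1, a matrix protein that binds calcium, at 3.92, 4.18 and 3.52 in control and 117, 129.9 and 124 at day 16. The secreted guidance factors Sema3d and Sema3b rose by 5.37 ± 0.24 and 4.41 ± 0.09 (log2), the matrix protein Adamtsl3 by 4.46 ± 0.15 and the organic anion transporter Slco1a2 by 4.46 ± 0.13. Mfrp rose by 4.67 ± 0.12. In the genome it shares its transcript with C1qtnf5, so the reads of both genes cannot be fully told apart. S100a1 was uneven, at 3.65, 0 and 0 FPKM in control and 39.5, 12.9 and 87.1 at day 16.

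Of the melanocyte markers, 3 were tested and all rose, while 4 more were measured but under the filter. Mlana, at 0 in every control and day 2 library, passed the filter only through later starved libraries. The count of rises therefore depends in part on the filter. Gpnmb, a glycoprotein of lysosomes and melanosomes, stood at 7.84, 8.87 and 9.78 FPKM in control and 58.4, 59.3 and 55.2 at day 16. The transcription factor Mitf stood at 0.763, 1.49 and 1.45 in control and 2.30, 3.12 and 3.25 at day 16. The summed level of the 7 measured melanocyte markers was 8.6 to 11.2 FPKM in control and 93.2 to 114 at day 16, with the pigment genes Tyr and Slc45a2 listed at 0 in all 6 libraries. The keratin Krt8 rose by 2.44 ± 0.13 (log2), the only epithelial marker of 10 with a mean of at least 1 FPKM.

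Some genes crossed their control level between day 2 and day 16, and these were chosen for that pattern, so their values are a description. The aldehyde dehydrogenase Aldh3a1 stood at 2.58, 2.02 and 2.58 FPKM in control, 82.5 ± 8.32 (mean ± SD, n = 3) at day 2 and 0.199, 0.247 and 0.245 at day 16. The IL-33 receptor Il1rl1 stood at 145, 172 and 177 in control, 267 ± 44.7 at day 2 and 10.8, 10.0 and 10.1 at day 16. In both of these genes day 2 was above control and day 16 was below it. In the other direction, the lactate transporter Slc16a1 stood at 22.0, 33.7 and 31.0 FPKM in control, 12.7 ± 2.41 at day 2 and 39.5, 46.8 and 40.2 at day 16. Its call against control, one of the conditions for choosing it, was lost without control replicate 1 (log2 change 0.37, adjusted p = 0.0657). Pmepa1, a target and inhibitor of TGF-beta signalling, stood at 221, 248 and 192 in control, 153 ± 5.68 at day 2 and 479, 519 and 525 at day 16. Lmcd1 and Aldh3b1 were also below control at day 2 and above it at day 16, by 0.82 ± 0.12 and 0.73 ± 0.16 (log2).

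Other genes moved far between day 2 and day 16. Id2, an inhibitor of differentiation factors, stood at 219, 242 and 235 FPKM in control, 7.47, 8.15 and 6.52 at day 2 and 91.8, 102 and 102 at day 16, a rise of 3.57 ± 0.14 from day 2 (log2, adjusted p = 4.44e-17) that left it below control. The selenium carrier Sepp1 stood at 0.380, 0.247 and 0.390 FPKM at day 2 and 19.2, 24.7 and 17.2 at day 16, and the reductase Akr1c14, listed at 0 in control, at 0.445, 0.422 and 0.0830 and 13.3, 13.2 and 10.8. The scaffold Akap12 fell from 318 ± 65.6 FPKM (mean ± SD) at day 2 to 27.3, 27.3 and 30.3, below its control level of 70.4, 84.1 and 88.4. Snhg4, a host gene of small nucleolar RNAs, was uneven within groups, at 17.2, 13.0 and 71.3 FPKM in control and 20.5, 88.3 and 57.9 at day 16, and did not pass against control (adjusted p = 0.609).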

How the data were processed

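Total RNA of 30 libraries was sequenced by the authors, who deposited 1 table of FPKM per gene symbol and library. TopHat2 2.1.1, Cufflinks, Cuffnorm 2.2.1 and the build rn6 are named per the submitters' processing notes. The annotation, filters and scaling are not given in the sources used here, and FPKM without counts leaves the depth unknown. FPKM are relative to the library, so total RNA per cell cannot be read from them.

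Genes with a mean of at least 1 FPKM over the 30 libraries were kept. Their log2(FPKM + 1) values were fitted with limma 3.58.1 (R 4.3.3) as 10 group means with a mean-variance trend, and day 16 was contrasted with control and with day 2. Tests were two-sided, with Benjamini-Hochberg adjustment over the 8940 genes and a threshold of 0.05. Errors on log2 changes are standard errors, and the fit was tested on simulated data.

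The labels number replicates 1 to 3 in every group. Deviations from the group mean correlated between same-numbered control and day 16 libraries at 0.44, 0.135 and 0.357, and at -0.345 to 0.0398 otherwise. Between day 16 and day 2 the values were 0.433, 0.183 and 0.191, and -0.298 to 0.125 otherwise. Same-numbered libraries thus deviated together, most clearly for replicate 1. The labels do not say what a replicate number stands for. The reported fit has no block, and the blocked fits were alternatives. Other alternatives were the pseudocount, the filter, the scaling, the trend, the compared groups alone, and leaving out libraries.

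Members and gene lists were chosen with earlier results of these data known. Named genes were the largest rises and falls past the threshold, from control and from day 2, that reached 5 FPKM in the higher group and whose libraries did not overlap, genes of opposite direction, and leading members of each list. Promoters came from RefSeq (GRCr8). A few genes that the rule allows are not reported here.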

Additional observations from a re-analysis of the deposited data

How the results depend on the processing

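Among the log2 changes that passed as reported, 1 reversed in an alternative. Eef1a1 against control, 0.25 as reported, was -0.28 under quantile normalization. Of the alternatives for list counts and totals, 1954 left the value within 1.5 times of the main one and 24 moved it. Against control, skeletal muscle genes that fell went from 6 to 11 without the filter, clock genes that rose from 8 to 5 under a filter of 5 FPKM, and ribosomal protein genes that rose from 13 to 21 after upper quartile scaling and 22 with replicates 2 and 3 only. Against day 2, mitosis genes that fell went from 5 to 2 with a pseudocount of 5, 3 without the filter and 2 in a fit of the compared groups alone, and ranged from 0 to 6 with 1 library left out. Fibroblast identity genes that fell went from 5 to 8 without the filter, and secreted factors that fell from 5 to 3 under a filter of 5 FPKM. Ribosomal protein genes that rose went from 5 to 3 with the compared groups alone and 12 with replicates 2 and 3 only, and ranged from 3 to 6 with 1 library left out. Respiratory chain genes that rose went from 8 to 15 with replicates 2 and 3 only. With 1 library left out, replication genes that fell ranged from 3 to 7 and tRNA synthetases that fell from 4 to 8. The cause of these shifts was not tested.

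With the replicate block, against day 2, cytosolic chaperones that rose went from 5 to 8 in both blocked fits and after quantile normalization, respiratory chain genes that rose to 13 (compared groups alone) and ribosomal protein genes that rose to 9 (all libraries). Against control, the block gave 3129 rises and 3320 falls over all libraries, Ccnd1 and Acta2 passed with it, and Rheb, Depdc5 and Eef1a1 lost their calls in the compared groups alone. It changed no other call of a single gene printed in the text. Scaling to equal sums gave 2554 rises and 3315 falls against control, quantile normalization 3239 and 2868, and with 1 library left out the rises ranged from 2631 to 2919 and the falls from 2883 to 3143. Of 11237 alternatives for single genes, 195 lost the call, 51 gained one and 10990 were counted as unchanged. For genes that did not pass as reported, the unchanged ones include any change of sign. Values at 0 and near the filter are the least certain, since depth is unknown.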
